A study of Homo sapiens with 27 samples.

Results

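The S100 genes encode small calcium binding proteins, and 10 of them (S100A2, S100A4, S100A6, S100A8, S100A9, S100A10, S100A11, S100A14, S100A16 and S100P) were followed here by their symbols in the read count tables of 3 human prostate cancer cell lines. All 10 were listed in at least 1 table, out of 27546 symbols listed in any of the 3, and 9 were listed in all 3. S100A8 was listed only in the table of DU145. The lines were 22Rv1, DU145 and PC3, and the design compared control cells with RIPK2-knockout cells of each line. RIPK2 encodes a kinase that relays signals from the NOD receptors of bacterial cell wall fragments to NF-kB. Each line had 3 groups of 3 libraries: a control group, whose cells carried a control guide RNA (gRNA) and are labelled wild type (WT), and 2 groups labelled RIPK2 knockout, each with another gRNA against RIPK2. The RIPK2 guides were gRNA 1 and gRNA 10 in 22Rv1, and gRNA 2 and gRNA 10 in DU145 and in PC3. The labels give no treatment, and they do not say whether a set of cells is a clone or a pool, nor whether the 3 libraries of a group came from separate cultures. The p-values therefore measure the spread between these libraries, which may be technical.

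S100 proteins bind calcium through a pair of EF-hand loops, change shape, and then dock onto partner proteins inside the cell. Some members are also released and act on cell surface receptors such as AGER (the receptor RAGE) and TLR4. S100A10 is the exception that does not respond to calcium, and it pairs with annexin A2 (ANXA2) at the plasma membrane, where the pair binds plasminogen and its activators. S100A8 and S100A9 form calprotectin, which is abundant in neutrophils and is made by stressed epithelia. S100A4 binds non-muscle myosin and is known for its link to motility and metastasis, S100A6 binds the ubiquitin ligase adaptor CACYBP, and S100A11 binds annexin A1. S100A2 is a p53-responsive gene of basal epithelium, S100A14 and S100A16 are a neighbouring epithelial pair, and S100P was first found in placenta and binds ezrin (EZR).

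Of the 10 genes, 9 lie in the S100 cluster of chromosome 1q21 and S100P lies on chromosome 4. In the GENCODE annotation of GRCh38, S100A10 (chr1:151982915-151994390) and S100A11 (chr1:152032506-152047907) lie at one end, and S100A9 (chr1:153357854-153361027), S100A8 (chr1:153390032-153391188), S100A6 (chr1:153534599-153536244), S100A4 (chr1:153543613-153550136), S100A2 (chr1:153561108-153567890), S100A16 (chr1:153606886-153613145) and S100A14 (chr1:153614255-153616986) follow. S100P is at chr4:6693069-6697170. S100A9 and S100P are on the plus strand and the other 8 on the minus strand, and all 10 are protein-coding. The gene span of S100A4 overlaps S100A3 on the same strand, so reads of these 2 genes may be split between them in a way that the counting steps, as far as stated, do not settle. S100A6 and S100A11 overlap antisense genes.

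The bases before the RefSeq starts are shown for 4 genes whose levels moved in the comparisons. S100A9 and S100A14 rose most in PC3 with gRNA 10. S100A11 rose in 22Rv1 with both guides, and S100A2 fell in DU145 with both guides. Each sequence is read 5′ to 3′ on the strand of the gene from the RefSeq promoter table (GRCh38.p14), within the 250 bases before the start, without the bases that GENCODE lists as exon. Capitals mark matches, on either strand, to the searched motifs: NF-kB (GGG, any 5 bases, then CC), AP-1 (TGANTCA), C/EBP (TTGCNNAA), p53 (CATG, any 6 bases, then CATG again) and the E-box (CACGTG). Overlapping matches run together. The stretches of S100A14, S100A11 and S100A2 lie inside the GENCODE gene spans given above, and that of S100A9 lies before its span.
S100A9, chr1:153357604-153357853 (plus strand): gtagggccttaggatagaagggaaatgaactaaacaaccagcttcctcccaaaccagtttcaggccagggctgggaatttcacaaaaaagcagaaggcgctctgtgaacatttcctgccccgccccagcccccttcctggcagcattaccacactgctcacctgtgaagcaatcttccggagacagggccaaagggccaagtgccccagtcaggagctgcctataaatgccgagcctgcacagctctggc
S100A14, chr1:153616356-153616575 (minus strand): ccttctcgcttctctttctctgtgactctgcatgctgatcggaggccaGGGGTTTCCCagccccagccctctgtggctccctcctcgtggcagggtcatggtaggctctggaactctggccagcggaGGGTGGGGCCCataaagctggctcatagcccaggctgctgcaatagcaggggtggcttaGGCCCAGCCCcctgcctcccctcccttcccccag
S100A11, chr1:152037036-152037254 (minus strand): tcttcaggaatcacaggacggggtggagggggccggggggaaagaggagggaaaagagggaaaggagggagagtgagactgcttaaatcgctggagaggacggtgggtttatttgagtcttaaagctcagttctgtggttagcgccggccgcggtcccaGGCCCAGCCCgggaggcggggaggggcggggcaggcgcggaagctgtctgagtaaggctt
S100A2, chr1:153565866-153566094 (minus strand): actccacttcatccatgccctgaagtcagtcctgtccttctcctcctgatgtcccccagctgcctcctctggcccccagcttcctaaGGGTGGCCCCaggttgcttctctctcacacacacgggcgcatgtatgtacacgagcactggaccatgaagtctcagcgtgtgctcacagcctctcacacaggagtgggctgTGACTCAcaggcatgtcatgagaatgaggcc
All 10 genes had an entry, with 14 windows of 250 bases in all. The NF-kB letters stood in 9 of the 14 windows, over 8 of the genes, beside 54.4% of all 34943 windows in the table, so these letters are common in such windows. S100A9 and S100P were the 2 genes without a match to it. The AP-1 letters were in 1 window, that of S100A2 printed above (TGACTCA), beside 6.59% of all windows. The C/EBP letters were in 1 window, that of S100A11 (TTGGGCAA, across the edge of an annotated exon and therefore not printed whole), beside 9.06%. The p53 and E-box letters were in none of the 14 windows, beside 0.298% and 6.32% of all windows. A match describes letters only. The windows of S100A10, S100A6 and S100P, and a second window of S100A2, lie wholly inside annotated exons and are not printed.

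The libraries held 17958558 to 20650819 counts each. Replicate 3 of 22Rv1 gRNA 1 stood apart from its group, with 16.7% of its counts from mitochondrial genes beside 2.10% and 1.92%. Replicate 3 of DU145 gRNA 2 did so too, with 2.89% beside 1.75% and 2.12%. This share was also higher with gRNA 10 than in control in 22Rv1 (1.81% to 2.06% beside 0.52% to 1.28%) and in DU145 (2.46% to 2.77% beside 1.26% to 1.32%), and its part in the S100 values was not tested. The targeted gene RIPK2 was lower than in control with both guides in 22Rv1 (log2 fold change -0.94 with gRNA 1 and -1.63 with gRNA 10) and in PC3 (-1.55 with gRNA 2 and -1.15 with gRNA 10). In DU145 RIPK2 fell by 1.84 on the log2 scale with gRNA 2. With gRNA 10 in DU145 its counts were 670 to 723 beside 820 to 926 in control, a log2 fold change of -0.29 that did not pass (adjusted p = 0.0614, edgeR quasi-likelihood test, as for all p-values below), although the libraries did not overlap. It passed in 5 of 15 alternative settings, with an adjusted p of 0.000576 when the fit held just these 2 groups and of 0.184 at the highest. Transcript levels need not fall after an edit. Of the markers of the labelled cell type, the epithelial keratins KRT8 and KRT18 and EPCAM, CDH1 and KRT19 were counted in every group.

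The control cells of the 3 lines differed widely in S100 levels. 22Rv1 expressed S100A11 and little else of the family, whereas DU145 and PC3 expressed S100A6, S100A10, S100A11 and S100A16 at high levels. Summed over the members, 22Rv1 control libraries held 55.6 to 66.2 CPM (counts after scaling every library to the same size), DU145 1337 to 1359 and PC3 1933 to 2119. Levels are compared between genes as CPM per kilobase of exon. In 22Rv1 control cells S100A11 was highest (88.0 ± 9.73 CPM per kilobase, SD, n = 3), followed by S100A6 (6.85 ± 1.20) and S100A10 (2.84 ± 0.118). S100P was at 0.139 ± 0.105. In DU145 the order was S100A6 (660.0 ± 15.6), S100A11 (386 ± 9.59), S100A10 (256 ± 10.9), S100A16 (128 ± 6.39), S100A4 (21.9 ± 2.01) and S100A2 (8.35 ± 0.577). Neighbours in this order did not overlap in DU145, except among S100A14, S100A9 and S100P, which all lay under 0.6 in each control library. In PC3 the order was S100A6 (1279 ± 97.5), S100A16 (396 ± 6.02), S100A11 (210 ± 6.38), S100A10 (96.6 ± 2.43), S100A4 (38.6 ± 0.975), S100A2 (12.2 ± 0.534), S100P (3.43 ± 0.292), S100A9 (2.16 ± 0.300) and S100A14 (0.208 ± 0.0981), again without overlap between neighbours.

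**Figure D1:**
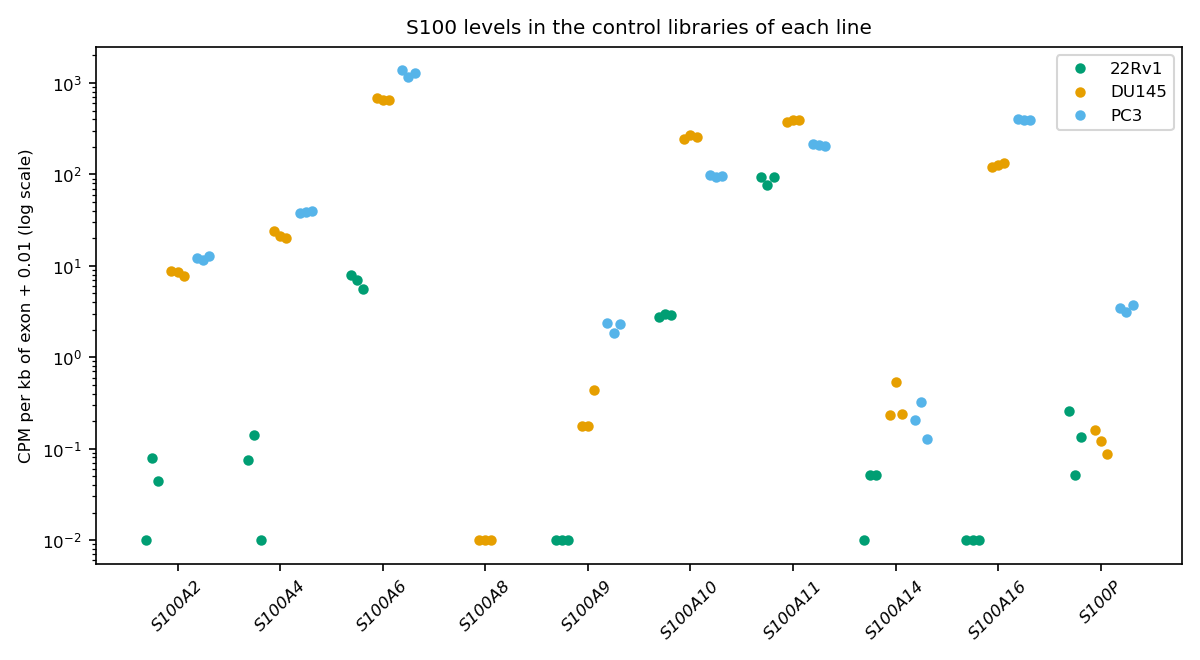
Level of each S100 gene in the 3 control libraries of each line, in CPM per kilobase of exon plus 0.01 on a log axis. Points are libraries. 22Rv1 points lie below those of the other lines for S100A2, S100A4, S100A6, S100A10, S100A11 and S100A16, and the points at the bottom are counts of 0.

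Against DU145, 8 of 9 members tested were lower in 22Rv1 control cells and none was higher (37.9% of all genes tested were lower, 75.9% were called in either direction). Against PC3, 9 of 9 were lower (39.4% of all genes were lower, 80.5% called). S100A2, S100A4, S100A9, S100A14 and S100A16 failed the low-count filter in the 22Rv1 fit, and are among the 9 only through libraries of the other lines. Against DU145, the lower bound of S100A9 was 0.904-fold with each 22Rv1 library set at 3 counts, so that call rests on very few counts. The number of genes called between lines is so large that a call by itself says little, and the sizes are of more use. S100A10 was lower in 22Rv1 than in DU145 by a log2 fold change of -6.50 (SE 0.15, adjusted p = 9.79e-23) and than in PC3 by -5.24 (SE 0.15). S100A6 was lower by -6.59 and -7.70. S100A16 had 0 counts in all 3 control libraries of 22Rv1 and 4071, 4311 and 4428 in DU145, so it was at least 1283-fold higher in DU145, and at least 3976-fold higher in PC3, where the counts were 13012, 12773 and 12707. These bounds set each 22Rv1 library at 3 counts. S100A4 (1, 2 and 0 counts in 22Rv1) was at least 113-fold higher in DU145 and at least 199-fold higher in PC3, and S100A2 (0, 2 and 1 counts) at least 81.4-fold and at least 119-fold. S100P went another way: its counts were 6, 1 and 3 in 22Rv1, 4, 3 and 2 in DU145 and 89, 80 and 95 in PC3, and 22Rv1 and DU145 overlapped (adjusted p = 0.686).

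DU145 and PC3 differed in which S100 genes led. Of 9 members tested, 2 were higher and 6 lower in DU145 control cells, beside 75.9% of all genes called. S100A9 and S100P failed the low-count filter in the DU145 fit, and are among the 9 through libraries of the other lines. S100A10 (log2 fold change 1.26, SE 0.11) and S100A11 (0.73, SE 0.13) were the 2 higher in DU145. S100A16 (-1.78), S100A6 (-1.10), S100A4 (-0.97), S100A2 (-0.69), S100A9 (-3.20) and S100P (-5.01) were lower in DU145 than in PC3. S100A14 did not pass, with counts of 6, 14 and 6 in DU145 and 5, 8 and 3 in PC3 (adjusted p = 0.423). The labels do not say whether the lines were sequenced together, and any batch and the line cannot be told apart.

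**Figure D2:**
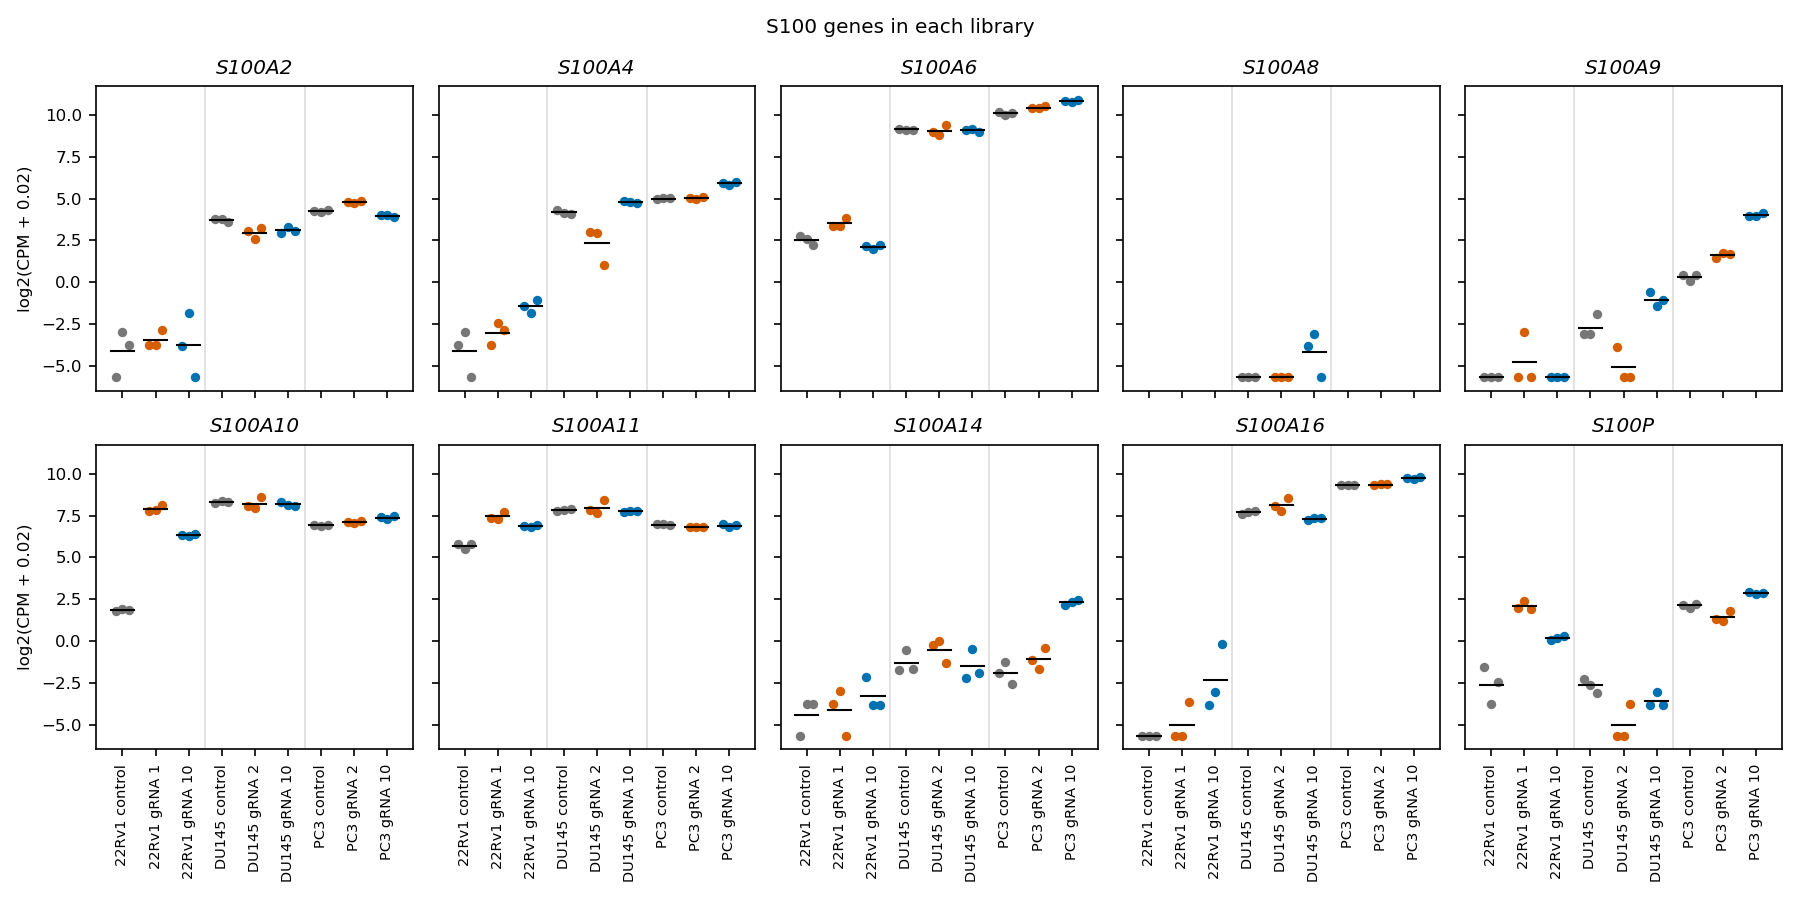
Level of each S100 gene in each of the 27 libraries, as log2 of CPM plus 0.02, by line and guide. Points are libraries and lines are group means, grey for control, orange for the first RIPK2 guide (gRNA 1 or gRNA 2) and blue for gRNA 10. S100A10, S100A11 and S100P stand above control in 22Rv1 with both guides, and S100A9 and S100A14 stand above control in PC3 with gRNA 10.

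In 22Rv1, RIPK2 guides were accompanied by a large rise of S100A10, with smaller rises of S100A11 and S100P. S100A10, nearly silent in 22Rv1 control cells, had 64, 69 and 67 counts in control, 4145, 4179 and 4761 with gRNA 1 and 1567, 1492 and 1625 with gRNA 10. Every library of either guide was above every control library, and those of gRNA 1 were above those of gRNA 10. In CPM this was 3.57 ± 0.149 in control, 243 ± 34.7 with gRNA 1 and 80.5 ± 3.36 with gRNA 10 (SD, n = 3). The fitted fold change was 68.0 with gRNA 1 (log2 6.09, SE 0.14, adjusted p = 1.06e-09) and 22.5 with gRNA 10 (log2 4.49, SE 0.13, adjusted p = 3.82e-09). The gRNA 1 level stayed under that of DU145 control cells, where S100A10 stood at 323 ± 13.8 CPM. Fewer cells that express a gene and less RNA per cell cannot be told apart in bulk libraries.

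S100A11, the member that was already expressed in 22Rv1, had 1044, 848 and 1036 counts in control, 3050, 2930 and 3561 with gRNA 1 and 2259, 2228 and 2351 with gRNA 10. The 3 groups did not overlap. It rose by a log2 fold change of 1.76 (SE 0.13, adjusted p = 2.29e-06) and 1.17 (SE 0.13, adjusted p = 4.15e-05). S100A11 has pseudogenes with similar sequence, and no pseudogene row of it held more than 6 counts in any library.

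S100P, the ezrin-binding member, had 6, 1 and 3 counts in 22Rv1 control, 73, 97 and 62 with gRNA 1 and 20, 22 and 24 with gRNA 10. The groups did not overlap here either. It rose by a log2 fold change of 4.53 (SE 0.37, adjusted p = 4.93e-06) with gRNA 1 and 2.62 (SE 0.42, adjusted p = 0.000592) with gRNA 10. S100P passed the low-count filter through its knockout libraries, and its fold change rests on 10 control counts in all.

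S100A6, the binding partner of CACYBP, moved with only 1 of the guides. It had 126, 111 and 88 counts in control, 191, 191 and 241 with gRNA 1 and 86, 77 and 91 with gRNA 10. The gRNA 1 libraries were above all others, and those of gRNA 10 overlapped control. It rose by a log2 fold change of 1.00 (SE 0.18, adjusted p = 0.00116) with gRNA 1, and the value with gRNA 10 was -0.41 (SE 0.19, adjusted p = 0.107). Without replicate 3 of gRNA 1 the gRNA 10 difference passed (adjusted p = 0.0266).

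In all, 4 of the 10 members could be tested in 22Rv1. With gRNA 1, 4 were higher and 0 lower (48.5% of all genes tested were called, 25.6% higher). With gRNA 10, 3 were higher and 0 lower (40.6% called, 20.0% higher). The median log2 fold change of the 4 was 3.15 and 1.90, beside 0.02 and 0.00 over all genes tested, and S100P is among the 4 only because of its knockout libraries. S100A10, S100A11 and S100P were called in the same direction with both guides, as were 24.6% of all genes tested. All of the 4 were also higher with gRNA 1 than with gRNA 10 (35.6% of all genes called): S100A10 by 1.59 (adjusted p = 1.92e-06), S100A11 by 0.59 (adjusted p = 0.00409), S100A6 by 1.41 (adjusted p = 0.000202) and S100P by 1.91 (adjusted p = 0.000437) on the log2 scale. RIPK2 itself was less reduced with gRNA 1 than with gRNA 10 (log2 difference 0.69, adjusted p = 0.00134). Leaving out replicate 3 of gRNA 1, the library rich in mitochondrial counts, the 4 gRNA 1 values were 5.95 for S100A10, 1.61 for S100A11, 0.81 for S100A6 and 4.62 for S100P, and all 4 still passed.

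Marker genes moved with the guides in 22Rv1 as well. The 5 epithelial markers summed to 827 to 883 CPM in control, 1004 to 1023 with gRNA 1 and 1045 to 1078 with gRNA 10. Singly, 4 were higher and 1 lower with gRNA 1 (48.5% of all genes called). With gRNA 10, 2 were higher and 2 lower (40.6% called). KRT19 fell from a mean of 7.05 CPM in control to 1.70 with gRNA 10, and KRT8 from 173 to 124. CDH1 fell from 420 to 340 with gRNA 1. The 5 fibroblast markers summed to 8.28 to 10.5, 13.8 to 31.2 and 24.9 to 26.6 CPM, with COL1A2 at 0 in control. The part of these marker sums in the S100 values was not tested.

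The other members stayed near 0 in 22Rv1 and were not tested. S100A4 had 1, 2 and 0 counts in control, 1, 3 and 2 with gRNA 1 and 7, 5 and 9 with gRNA 10, so that it was at least 2.25-fold higher with gRNA 10 than in control. S100A16 had 0 counts in control, 0, 0 and 1 with gRNA 1 and 1, 2 and 17 with gRNA 10, a spread in which 1 library held most of the counts. S100A2, S100A9 and S100A14 had 5 counts or fewer in every 22Rv1 library.

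**Figure D3:**
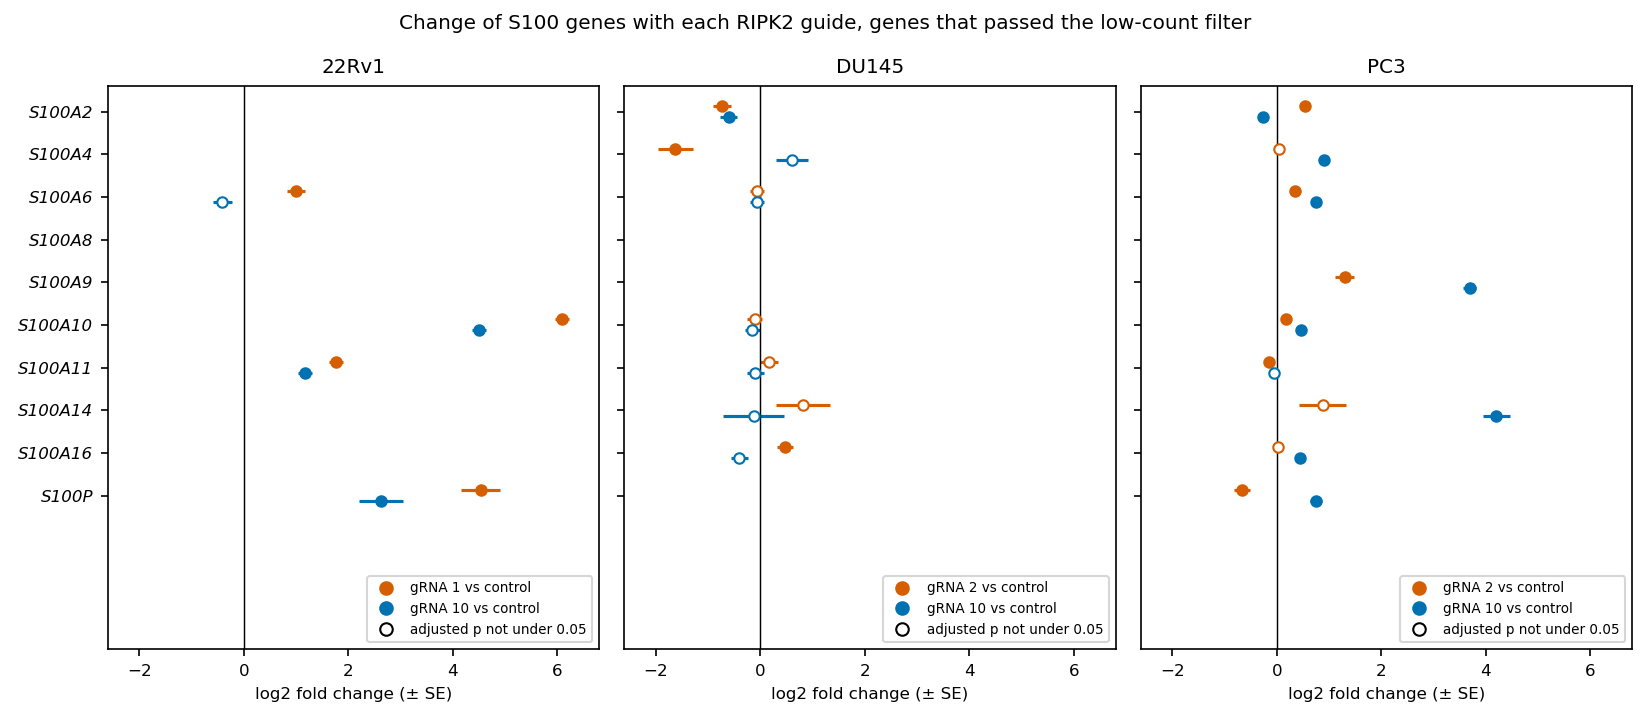
Log2 fold change of each tested S100 gene against control, with its standard error, for both RIPK2 guides of each line. Filled points passed adjusted p 0.05 and open points did not. The 22Rv1 panel reaches 6.09 for S100A10, the DU145 panel holds mostly open points near 0, and the PC3 panel shows S100A9 and S100A14 at 3.69 and 4.20 with gRNA 10.

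In DU145 the 3 most abundant members hardly moved, and the changes were in S100A2, S100A4 and S100A16. Of 7 members tested, 1 was higher and 2 lower with gRNA 2 (34.0% of all genes called), and 0 were higher and 1 lower with gRNA 10 (40.0% called, 19.8% lower). The median log2 fold change of the 7 was -0.05 and -0.12, beside 0.01 and 0.00 over all genes. S100A2 was the member called in the same direction with both guides, as were 16.1% of all genes. It had 286, 281 and 247 counts in control, 167, 123 and 169 with gRNA 2 and 153, 199 and 163 with gRNA 10. Both knockout groups lay below all control libraries and overlapped each other. It fell by 0.74 (SE 0.17, adjusted p = 0.00789) and by 0.61 (SE 0.17, adjusted p = 0.0155) on the log2 scale. The gRNA 10 call of S100A2 was lost without control replicate 1 or 2 or gRNA 10 replicate 1 or 3 (adjusted p = 0.0552 to 0.0681).

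S100A4, the myosin-binding member, differed between the guides of DU145. It had 416, 369 and 343 counts in control, 159, 155 and 37 with gRNA 2 and 585, 544 and 522 with gRNA 10. The gRNA 2 libraries were below all others and the gRNA 10 libraries above all others. It fell by 1.62 (SE 0.33, adjusted p = 0.00445) with gRNA 2, while the value with gRNA 10 was 0.60 (SE 0.31, adjusted p = 0.144). The guides differed by -2.23 (SE 0.34, adjusted p = 0.000608). Replicate 3 of gRNA 2 set much of the spread: without it S100A4 was at -1.23 with gRNA 2 (adjusted p = 1.65e-06), and the 0.60 with gRNA 10 passed (adjusted p = 4.46e-05).

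S100A16 likewise took opposite signs. It had 4071, 4311 and 4428 counts in control, 5452, 4438 and 6723 with gRNA 2 and 2942, 3211 and 3202 with gRNA 10, in 3 groups that did not overlap. The value was 0.47 (SE 0.16, adjusted p = 0.0410) with gRNA 2 and -0.40 (SE 0.16, adjusted p = 0.0688) with gRNA 10, and the guides differed by 0.87 (SE 0.16, adjusted p = 0.00194). The gRNA 2 call was lost in 8 of its 15 alternative settings (adjusted p = 0.0597 to 0.132), and the gRNA 10 difference passed without replicate 3 of gRNA 2 (adjusted p = 0.000601). Between the guides, 1 member was higher and 1 lower with gRNA 2 than with gRNA 10 (38.8% of all genes called).

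The 3 most abundant members of DU145 did not pass with either guide. S100A6 had 11958, 11489 and 11311 counts in control, 10081, 9125 and 12143 with gRNA 2 and 10744, 11375 and 10142 with gRNA 10, with a log2 fold change of -0.05 for both guides. S100A10 was at -0.11 (SE 0.14) and -0.15 (SE 0.14), and S100A11 at 0.17 (SE 0.17) and -0.10 (SE 0.17). Without replicate 3 of gRNA 2, whose counts of S100A6, S100A10, S100A11 and S100A16 were the highest of its group, S100A10 was at -0.32 (adjusted p = 0.00253) and S100A6 at -0.24 (adjusted p = 0.0132) with gRNA 2, and both then passed. Summed over the members, control libraries of DU145 held 1337 to 1359 CPM, gRNA 2 libraries 1124 to 1785 and gRNA 10 libraries 1188 to 1272. The sum of the 5 epithelial markers moved with the guides, from 892 to 944 CPM in control to 1634 to 3063 with gRNA 2 and 1539 to 1664 with gRNA 10, and its part in the S100 values was not tested. Singly, 4 were higher and 0 lower with gRNA 2 (34.0% of all genes called), and 2 higher and 0 lower with gRNA 10 (40.0% called). EPCAM, not among the 2, had a mean of 34.0 CPM with gRNA 10 beside 58.1 in control.

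The members of low level in DU145 were S100A14, S100A9, S100P and S100A8. S100A14 had 6, 14 and 6 counts in control, 17, 20 and 7 with gRNA 2 and 4, 14 and 5 with gRNA 10, and did not pass. S100A9, the calprotectin subunit, had 2, 2 and 5 counts in control, 1, 0 and 0 with gRNA 2 and 13, 7 and 9 with gRNA 10, at least 3.16-fold lower with gRNA 2 than with gRNA 10, and was not tested. S100A8, its partner, had no count in control or gRNA 2 libraries of DU145 and 1, 2 and 0 counts with gRNA 10. S100P had 4 counts or fewer in every DU145 library. The 8 myeloid markers summed to 4.89 to 5.95 CPM in control, 0.94 to 2.83 with gRNA 2 and 4.94 to 6.24 with gRNA 10 in DU145. The 8 keratinocyte cornification markers summed to 8.28 to 11.9 CPM in 22Rv1 control, 36.8 to 40.6 in DU145 control and 40.7 to 50.8 in PC3 control libraries.

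In PC3 most of the members tested were called with each guide, as were most genes. Most members were higher with gRNA 10 than with gRNA 2. Of 9 members tested, 4 were higher and 2 lower with gRNA 2 (63.6% of all genes called), and 7 were higher and 1 lower with gRNA 10 (73.5% called, 37.9% higher). The median log2 fold change of the 9 was 0.18 and 0.75, beside 0.01 and 0.01 over all genes, and S100A14 is among the 9 only because of its gRNA 10 libraries. With 3 libraries that agreed closely (r of log2 CPM at least 0.995 within each group), small differences passed in PC3, so the sizes matter more than the count. S100A6, S100A9 and S100A10 were higher with both guides, and no member was lower with both, beside 34.2% of all genes called in the same direction with both guides.

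S100A9 had 27, 21 and 27 counts in PC3 control, 56, 67 and 64 with gRNA 2 and 322, 317 and 366 with gRNA 10. The 3 groups did not overlap. It rose by a log2 fold change of 1.30 (SE 0.19, adjusted p = 4.35e-07) and 3.69 (SE 0.13, adjusted p = 3.12e-21), from 1.24 ± 0.173 CPM in control to 16.1 ± 1.26 CPM with gRNA 10 (SD, n = 3). Its partner S100A8 was not listed in the PC3 table. The 8 myeloid markers, of cells rich in S100A9, summed to 0.70 to 1.09 CPM in control, 1.18 to 1.88 with gRNA 2 and 0.82 to 1.26 with gRNA 10, and 7 of the 8 held 3 counts or fewer in every gRNA 10 library or were not listed. The eighth, CD14, rose with both guides (log2 fold change 1.58 for each, adjusted p = 0.00191 and 0.00151), from 3 to 9 counts in control to 11 to 21 with gRNA 2 and 13 to 20 with gRNA 10. Its part in the S100A9 values was not tested.

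S100A14 had 5, 8 and 3 counts in control, 9, 6 and 15 with gRNA 2 and 92, 105 and 114 with gRNA 10. Only the gRNA 10 libraries stood apart. It rose by 4.20 (SE 0.26, adjusted p = 3.88e-15) with gRNA 10, and the value with gRNA 2 was 0.88 (SE 0.45, adjusted p = 0.0888). This value depended on single libraries: without control replicate 2 or gRNA 2 replicate 2 it passed (adjusted p = 0.0415 and 0.0355). S100A14 passed the low-count filter through its gRNA 10 libraries.

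S100A16, the neighbour of S100A14, had 13012, 12773 and 12707 counts in control, 13067, 13396 and 13296 with gRNA 2 and 17932, 17216 and 18768 with gRNA 10. It rose by 0.44 (SE 0.03, adjusted p = 1.14e-12) with gRNA 10, and the value with gRNA 2 was 0.03 (SE 0.03, adjusted p = 0.413). S100A4 showed the same shape. It had 622, 646 and 657 counts in control, 676, 635 and 684 with gRNA 2 and 1238, 1157 and 1341 with gRNA 10, and rose by 0.91 (SE 0.05, adjusted p = 2.02e-15) with gRNA 10 alone (0.04, SE 0.06, with gRNA 2).

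S100A6, the most abundant member, had 23261, 20043 and 21992 counts in control, 27545, 27009 and 29621 with gRNA 2 and 38164, 36037 and 39566 with gRNA 10. It rose by 0.35 (SE 0.05, adjusted p = 3.22e-05) and 0.75 (SE 0.05, adjusted p = 4.12e-09), in 3 groups that did not overlap. S100A10 rose less, by 0.18 (SE 0.04, adjusted p = 0.000448) and 0.46 (SE 0.04, adjusted p = 5.58e-11), from 2487, 2376 and 2462 counts in control to 2802, 2725 and 2874 with gRNA 2 and 3547, 3215 and 3630 with gRNA 10. S100A11 went the other way with gRNA 2, where it fell by 0.14 (SE 0.04, adjusted p = 0.00583), and was at -0.05 (adjusted p = 0.265) with gRNA 10.

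S100A2 and S100P changed in opposite directions with the guides of PC3. S100A2 had 385, 366 and 400 counts in control, 567, 533 and 583 with gRNA 2 and 341, 335 and 310 with gRNA 10, so that it rose by 0.53 (SE 0.06, adjusted p = 1.62e-08) and fell by 0.27 (SE 0.07, adjusted p = 0.00101). S100P had 89, 80 and 95 counts in control, 51, 47 and 70 with gRNA 2 and 160, 147 and 153 with gRNA 10, so that it fell by 0.66 (SE 0.15, adjusted p = 0.000290) and rose by 0.75 (SE 0.12, adjusted p = 2.12e-06). In both genes the 3 groups did not overlap.

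Compared directly, 1 member (S100A2, log2 difference 0.80) was higher and 7 were lower with gRNA 2 than with gRNA 10 in PC3, beside 73.4% of all genes called. The 7 were S100A14 (-3.32), S100A9 (-2.39), S100P (-1.42), S100A4 (-0.87), S100A16 (-0.41), S100A6 (-0.40) and S100A10 (-0.27). S100A11 did not pass (-0.09, adjusted p = 0.0728). RIPK2 was lower with gRNA 2 than with gRNA 10 by -0.40 (adjusted p = 1.05e-06). The share of mitochondrial counts was 4.44% to 4.69% in control, 4.34% to 4.59% with gRNA 2 and 2.90% to 3.20% with gRNA 10. The 5 epithelial markers summed to 1213 to 1271 CPM, 1394 to 1427 CPM and 2372 to 2556 CPM in the same order. Singly, 2 were higher and 1 lower with gRNA 2 (63.6% of all genes called), and 4 higher and 1 lower with gRNA 10 (73.5% called). EPCAM fell from a mean of 40.7 CPM in control to 32.1 with gRNA 10. Neither the mitochondrial share nor the marker sum was tested for its part in the S100 values.

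Genes beside the S100 cluster were mostly higher with both guides in PC3. Of 23 neighbouring 1q21 genes that are not S100 genes, 20 were tested. With gRNA 2, 18 were higher and 0 lower (63.6% of all genes tested were called). With gRNA 10, 15 were higher and 1 lower (73.5% of all genes called, 37.9% higher). The neighbours' median log2 fold change was 0.37 and 0.30, beside 0.01 and 0.01 over all genes. Between the guides the neighbours did not follow the members. With gRNA 2 against gRNA 10, 7 neighbours were higher and 7 lower (median 0.05). Of the members, 1 was higher and 7 lower (median -0.41), beside 73.4% of all genes called. SLC27A3 (1.10 and 1.46), THEM4 (0.70 and 0.72), SNX27 (0.49 and 0.72) and ILF2 (0.59 and 0.40) rose with both guides. Over the 10 megabases on either side of S100A6, 216 protein-coding genes other than S100 genes were tested in PC3, of which 160 were higher and 15 lower with gRNA 2 (median 0.38), and 131 higher and 34 lower with gRNA 10 (median 0.25). With gRNA 2, S100A6 (0.35) and S100A10 (0.18) were no further up than that median, and S100A2 (0.53) and S100A9 (1.30) were above it. With gRNA 10, S100A6 (0.75), S100A10 (0.46), S100A16 (0.44), S100A4 (0.91), S100P (0.75, on chromosome 4), S100A9 (3.69) and S100A14 (4.20) were above 0.25, and S100A2 (-0.27) and S100A11 (-0.05) below it. Gene copy number was not measured, and the part of a regional shift in the S100 values was not tested.

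**Figure D4:**
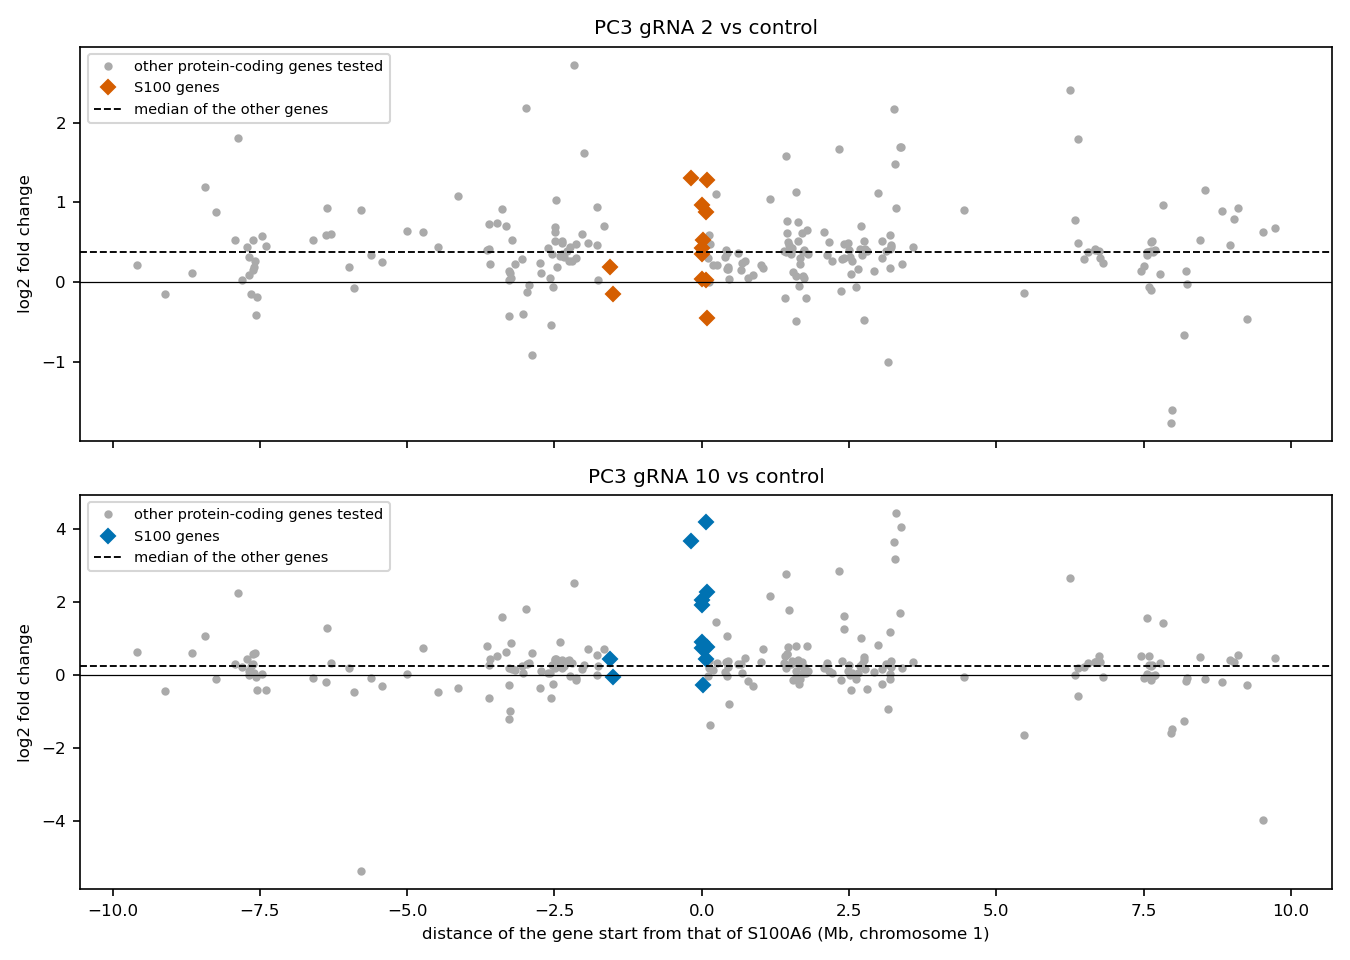
Log2 fold change in PC3 of protein-coding genes within 10 megabases of the start of S100A6 on chromosome 1, against distance, for gRNA 2 (top) and gRNA 10 (bottom). Diamonds are S100 genes, grey points the other genes tested, and the dashed line the median of the other genes (0.38 and 0.25). Most grey points lie above 0 along the whole stretch, and a few S100 genes lie well above them with gRNA 10.

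The same neighbours behaved otherwise in the other lines. In 22Rv1, 22 were tested. With gRNA 1, 10 were higher and 2 lower (median 0.12), beside 48.5% of all genes called and 25.6% higher. With gRNA 10, 6 were higher and 2 lower (median 0.01), beside 40.6% called and 20.0% higher. The log2 fold changes of S100A10 and S100A11 were far from their neighbours' median. CELF3 (1.79 and 1.59), SLC27A3 (1.71 and 1.42) and NPR1 (1.26 and 1.94) rose with both guides. In DU145, 1 of 22 was higher and 6 lower with gRNA 2 (34.0% of all genes called). With gRNA 10, 2 were higher and 6 lower (40.0% of all genes called, 19.8% lower). These counts were not stable: without gRNA 2 replicate 3, 13 were called with gRNA 2 and 15 with gRNA 10, and leaving out control replicate 1 took the gRNA 10 count to 4, as leaving out gRNA 10 replicate 1 or 3 took it to 5. The largest of these was NUP210L, with 56 to 76 counts in control, 1 to 4 with gRNA 2 and 1 to 8 with gRNA 10.

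gRNA 10 was the RIPK2 guide used in all 3 lines. RIPK2 transcript was called lower with gRNA 10 in 22Rv1 and PC3, and did not pass in DU145. The effect of gRNA 10 on the S100 genes was tested for a difference between the lines in 1 fit of the 27 libraries. The effect differed for 7 of 9 members, beside 68.2% of all genes tested. S100A10 was at 4.49 in 22Rv1, -0.15 in DU145 and 0.46 in PC3 (adjusted p for the difference = 9.03e-17). S100A11 was at 1.17, -0.10 and -0.05 (adjusted p = 1.50e-06), and S100A6 at -0.41, -0.05 and 0.75 (adjusted p = 5.88e-05). S100A14 (adjusted p = 2.41e-05), S100P (adjusted p = 0.000220), S100A16 (adjusted p = 0.000475) and S100A9 (adjusted p = 0.0293) differed too, but S100A14, S100A16 and S100A9 rest on very few counts in 22Rv1, and the S100A9 call was lost without DU145 control replicate 3 (adjusted p = 0.367), DU145 gRNA 10 replicate 2 (adjusted p = 0.0584) or PC3 control replicate 2 (adjusted p = 0.0501). S100A2 (adjusted p = 0.202) and S100A4 (adjusted p = 0.182) did not pass, but S100A4 passed when only control and gRNA 10 libraries were fitted (adjusted p = 0.00539).

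The other S100 genes were mostly low. Of 10 listed for comparison, 1 was tested in 22Rv1, 2 in DU145 and 4 in PC3. In PC3, 2 were higher and 1 lower with gRNA 2 (63.6% of all genes tested were called), and 4 higher and 0 lower with gRNA 10 (73.5% called, 37.9% higher). S100A5, between S100A6 and S100A4, had 17 to 27 counts in PC3 control, 35 to 50 with gRNA 2 and 86 to 108 with gRNA 10 (log2 fold change 0.97 and 2.07). S100A3, which overlaps S100A4, had 57 to 71, 82 to 88 and 208 to 265 counts there (0.43 and 1.92). In DU145, S100A3 rose with both guides (0.86, adjusted p = 0.00355, and 1.36, adjusted p = 0.000147), whereas S100A4 fell with gRNA 2. The 22Rv1 libraries held at most 1 count of S100A3.

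Partners and receptors of S100 proteins were called in both directions, except with gRNA 10 in DU145, where those called were lower. Of 22 listed, 19 were tested in 22Rv1 (7 higher and 4 lower with gRNA 1, 4 higher and 3 lower with gRNA 10), 20 in DU145 (4 and 4 with gRNA 2, 0 and 4 with gRNA 10) and 22 in PC3 (9 and 6 with gRNA 2, 10 and 9 with gRNA 10). Over all genes tested, 48.5% and 40.6% were called in 22Rv1, 34.0% and 40.0% in DU145 and 63.6% and 73.5% in PC3, and nothing particular to the list is read from its counts. The list's median log2 fold change was -0.03 and 0.19 in 22Rv1, 0.05 and 0.05 in DU145 and -0.03 and -0.05 in PC3. ANXA2, the partner that stabilises S100A10, stayed at low counts in 22Rv1, with 0 to 2 in control, 2 to 16 with gRNA 1 and 8 to 46 with gRNA 10. The means of the guide groups were respectively at least 2.76-fold and at least 6.84-fold higher, but 1 library of each guide held most of the counts. The lowest gRNA 1 library, at 2 counts, was no higher than the highest control library. ANXA2 did not pass the low-count filter there. The libraries of DU145 and PC3 held 17582 to 27502 counts of ANXA2. ANXA2 is named here after its values were seen. AHNAK, a large scaffold protein that binds the S100A10 and annexin A2 pair, rose in 22Rv1 by 0.93 and 1.78, and ANXA6, which binds S100A1 and S100A6, fell by 1.32 and 2.20.

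In 22Rv1, BSG, a receptor of S100A9, rose by 0.40 and 0.55, and S100PBP, named for its binding to S100P, fell by 0.34 and 0.51. The gRNA 1 call of S100PBP (adjusted p = 0.0484) was lost in 10 of 15 alternative settings (adjusted p up to 0.153). ANXA1, the partner of S100A11, fell in DU145 by 1.40 and 0.95, and SRI, a calcium sensor related to the EF-hand family, fell by 0.70 and 0.58. In PC3 CACYBP, the partner of S100A6, rose from 569 to 590 counts in control to 1109 to 1215 with gRNA 2 and 1186 to 1241 with gRNA 10 (log2 fold change 1.00 and 1.02). MYH9, the myosin bound by S100A4, rose by 0.59 and 0.64, and ANXA6 by 0.52 and 0.58. TLR4, the receptor of S100A8 and S100A9, split by guide in PC3, with 26 to 35 counts in control, 0 to 1 with gRNA 2 (at least 10.8-fold lower) and 72 to 86 with gRNA 10 (log2 fold change 1.22). TLR4 is named after its values were seen.

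Factors known to act on S100 promoters were called in both directions in every line, beside the same shares of all genes as for the partners. Of 16, 14 were tested in 22Rv1, where 6 were higher and 4 lower with gRNA 1 and 7 higher and 2 lower with gRNA 10. KLF4 rose (1.07 and 1.17), CTNNB1 fell by 0.99 and 0.98, and GRHL2, an epithelial factor, fell by 1.03 and 0.63. FOSL1, a subunit of AP-1, had 0 to 1 counts in 22Rv1 control, 4 to 11 with gRNA 1 and 7 to 12 with gRNA 10, at least 2.36-fold and at least 3.32-fold higher. In DU145, 3 of 13 were higher and 3 lower with each guide, among them CEBPA (-1.69 and -0.52), CEBPD (-0.98 and -0.64) and CEBPB (0.49 and 0.64). In PC3, 5 of 12 were higher with each guide, and 5 and 4 were lower, among them CTNNB1 (0.42 and 0.49), KLF4 (-0.36 and -0.92), FOSL1 (0.18 and 0.22) and JUN (0.64 and 0.15).

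The members were also compared with each other across the 27 libraries, after each line was centred on its own mean of log2 CPM. The libraries of a group share their cells and the 2 guides share a control, so the correlations only describe the shapes. S100A10 and S100A11 were most alike (r = 0.95), and S100P followed both (r = 0.89 with S100A10 and 0.86 with S100A11), although it lies on another chromosome. These genes did not move together in every line. In PC3, mean CPM in control was 122 for S100A10, 125 for S100A11 and 4.38 for S100P. With gRNA 2 the means were 138, 113 and 2.76, and with gRNA 10 they were 167, 120 and 7.39. How far a single line set these r values was not tested. S100A9 resembled S100A14 (r = 0.62) and S100A4 (r = 0.59). Among the other 16321 genes, those most like each member were ZNF789 and ZNF558 for S100A10 (r = 0.97 for both), EVPL (0.96) and NDUFS8 (0.95) for S100A11, AREG and AP4M1 for S100P (0.90 for both), NPTXR (0.93) and MCC (0.92) for S100A4, SCN4A (0.92) and PACSIN1 (0.91) for S100A9, LRATD2 and ADGRF5 for S100A14 (0.92 for both), TRPA1 (0.91) and ELAVL3 (0.89) for S100A6, UCHL1 (0.94) and RUNX1 (0.84) for S100A16, and TMEM253 (0.67) and DLG5-AS1 (0.66) for S100A2. S100A2 had no close match.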

How the data were processed

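Strand-specific mRNA libraries were read from both ends (DNBSEQ), per the labels' protocols. For every line, a single table of unnormalized counts was deposited, with gene symbols as rows and 9 libraries as columns, per the file headers. The tools FastQC, STAR and edgeR and the build hg38 stand in the submitters' processing notes, without roles; how reads were counted, and with which annotation, is not given in the sources used here.

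Groups and replicate numbers came from the sample titles. The deposited counts of each line were fitted with edgeR 4.0.16 in R 4.3.3 (filterByExpr with min.count 10 and min.total.count 15, TMM, robust quasi-likelihood test, group as the only term, 9 libraries in 1 fit). Lines were compared in 1 fit of all 27 libraries over the 20089 symbols that the 3 tables share, of which 16322 were tested. In the line fits, 15198 genes were tested in 22Rv1, 14908 in DU145 and 14718 in PC3. Calls are two-sided at a Benjamini-Hochberg adjusted p of 0.05 over all genes tested. CPM use TMM-scaled library sizes within a line, so levels set side by side across lines were scaled separately. Exon lengths are GENCODE 29 unions. Lower bounds set a group at 3 counts per library, and cover counting error only. Libraries of a group all differed beyond counting noise (chi-square per degree of freedom 1.82 to 209), so none was merged. The labels give no date or batch.

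The members and the other lists were chosen with earlier results of these data known, so they are no independent evidence. Genes named from the other lists are those called in the same direction with both guides of a line, at most 4 per list and line, ranked by the smaller absolute fold change; the 2 genes most like each member were ranked by Pearson r. Some genes that the rule names, and 1 marker list, are not reported here. The fits were tested on simulated data. Alternatives were DESeq2 1.42.0, RLE scaling, other low-count filters, other sets of libraries, a replicate block and leaving out each library.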

Additional observations from a re-analysis of the deposited data

Results flagged for a closer look

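The effect of gRNA 10 against control differed between 22Rv1, DU145 and PC3, by a joint test of the difference (edgeR, Benjamini-Hochberg adjusted over all genes), for 7 of 9 members, near the 68.2% of all genes tested for which it differed. The adjusted p was 9.03e-17 for S100A10, which rose in 22Rv1 and PC3 and did not pass in DU145, and 1.50e-06 for S100A11, which rose in 22Rv1 and passed in neither other line. It was 5.88e-05 for S100A6, which rose in PC3 and did not pass in 22Rv1 or DU145, and 0.000220 for S100P, which rose in 22Rv1 and PC3 and was at 2 counts or fewer with gRNA 10 in DU145. It was 2.41e-05 for S100A14, 0.000475 for S100A16 and 0.0293 for S100A9, all of which rose in PC3. The S100A9 value was 0.367 without DU145 control replicate 3, 0.0584 without DU145 gRNA 10 replicate 2 and 0.0501 without PC3 control replicate 2. These 3 had 4 or fewer counts in every 22Rv1 library of control and gRNA 10, except 1 gRNA 10 library with 17 counts of S100A16. RIPK2 transcript itself was called lower with gRNA 10 in 22Rv1 and PC3, and did not pass in DU145.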

How the results depend on the processing

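The 13 counts of members called were computed again under 195 alternatives, and 180 stayed within 1.5 times. The others were these. With no filter on low counts, 5 members were called for 22Rv1 gRNA 10 and 2 for DU145 gRNA 10. When the fit held just the 2 groups compared, 4 were called for DU145 gRNA 10. With at least 10 counts in every library, 3 were called in each of the 3 comparisons of control cells and 3 differed between lines with gRNA 10, since fewer members were tested. Leaving out each library in turn, the count for DU145 gRNA 2 was 2 to 5 (5 without gRNA 2 replicate 3), that for DU145 gRNA 10 was 0 to 3 (0 without control replicate 1 or 2 or gRNA 10 replicate 1 or 3; 2 and 3 without gRNA 2 replicate 2 or 3), and that for gRNA 2 against gRNA 10 in DU145 was 2 to 4 (4 without gRNA 2 replicate 3).

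Of 1313 alternatives for 90 values of single members, 1275 kept direction and side of the threshold, 15 lost the call, 13 gained it and 10 changed sign. Those 10 were in values that did not pass, with 1 library left out: in DU145 gRNA 2, S100A10 at 0.0070 (without gRNA 2 replicate 2, range over libraries left out -0.32 to 0.0070), S100A11 at -0.10 (replicate 3, range -0.10 to 0.33) and S100A6 at 0.0016 and 0.0718 (replicates 1 and 2, range -0.24 to 0.0718); in DU145 gRNA 10, S100A14 at 0.39 (control replicate 2), 0.18 and 0.11 (gRNA 10 replicates 1 and 3), range -0.87 to 0.39; in PC3 gRNA 10, S100A11 at 0.00013 (gRNA 10 replicate 2, range -0.0874 to 0.00013); between control cells, S100P at -0.42 for 22Rv1 against DU145 (22Rv1 control replicate 1, range -0.42 to 0.71) and S100A14 at -0.0192 for DU145 against PC3 (DU145 control replicate 2, range -0.0192 to 0.90). The cause was not tested. DESeq2 and RLE scaling turned no member's direction.

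Of 9 same-numbered pairs of libraries in 22Rv1, 1 deviated together above a limit of r = 0.1, control replicate 3 with gRNA 1 replicate 3 (r = 0.34). The lowest r in 22Rv1 was -0.08. No pair passed the limit in DU145 (r from -0.19 to 0.07) or PC3 (-0.05 to 0.06). The numbers were not taken as pairs. With the replicate block, 4 and 3 members were called in 22Rv1 (gRNA 1 and gRNA 10), 3 and 1 in DU145 and 6 and 8 in PC3, which are the counts without the block. S100A2, S100A4, S100A9, S100A14 and S100A16 in 22Rv1 and S100A8, S100A9 and S100P in DU145 were below the low-count filter. They have lower bounds or counts in place of a test.

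Among the other lists, 24 of 360 counts moved by over 1.5 times. With 1 library left out, the partners called were 7 for 22Rv1 gRNA 1 (without control replicate 1 or 3), 12 for 22Rv1 gRNA 10 (gRNA 1 replicate 3), 5 for DU145 gRNA 2 (any control library or gRNA 10 replicate 3) and 9 for DU145 gRNA 10 (gRNA 2 replicate 3). The 2 other S100 genes called for DU145 gRNA 10 became 1 without control replicate 1 or 2 or any gRNA 10 library.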
